A study of Mus musculus with 15 samples.

Results

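The R-type tumours after 0.2 Gy are 3 mouse medulloblastomas, tumours of the cerebellum, named MB7, MB8 and MB9, and they were set against normal cerebellum samples 1, 2 and 3. These 6 arrays were chosen by their labels and are 6 of the 15 in the series, which holds 12 tumours and 3 normal cerebella. The tumours carried the genotype Ptch1+/- in the C3B6F1 strain, were X-irradiated with 0.2 Gy on postnatal day 1, and were collected when the animal was moribund. The normal cerebella were not irradiated, and the labels give neither strain nor genotype for them. All 6 samples were female, and the ages, printed in the labels without a unit, were 127, 106 and 113 for MB7, MB8 and MB9 and 103, 103 and 113 for the normal cerebella. Tumour and irradiation therefore differ together between the groups and cannot be told apart, whether strain and genotype differ too is not known from the labels, and the labels do not say what the letters S and R of the tumour types stand for. The other tumour groups used served as a reference for what differs: S-type tumours after 0.2 Gy (MB4, MB5 and MB6) and R-type tumours after 1.5 Gy (MB10, MB11 and MB12), all of the same genotype, strain and day of irradiation. MB6 was male and the others female. Their ages were 128, 133 and 135 for MB4 to MB6 and 87, 101 and 103 for MB10 to MB12. The unirradiated S-type tumours MB1, MB2 and MB3, female and aged 160, 173 and 172, were not compared here. They entered the shared fit, the filter on dim probes and the choice of probe.

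Ptch1 encodes the receptor for Sonic hedgehog (SHH). Without ligand, Ptch1 holds the membrane protein Smo inactive, and once Smo is released the GLI transcription factors switch on target genes, among them Gli1, Mycn and D-type cyclins. In the young cerebellum, Purkinje cells secrete SHH and granule neuron precursors in the outer layer divide in response, before they migrate inward and mature into granule neurons. Mice that lack 1 working copy of Ptch1 are prone to medulloblastoma of this lineage.

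Total RNA was labelled with Cy3 and hybridised to 1-colour Agilent arrays, 1 sample per array. A level here is the log2 signal of a gene's probe minus the 75th percentile of its array, so 0 is that percentile. A change is the mean level of the 3 tumours minus that of the 3 normal cerebella, and 1 unit is a doubling. Levels of different genes come from different probes and are not compared with each other. Of 41098 probes used, 25261 to 26062 were well above background on the tumour arrays and 26107 to 26555 on the normal arrays. Across probes the 3 tumours correlated with each other at 0.9847 to 0.9889 and with the normal cerebella at 0.7807 to 0.8044, where probes are not independent replicates. MB7 shared a slide with normal cerebellum 3 and MB8 with normal cerebellum 2, while MB9 and normal cerebellum 1 were on slides without the other group. Over 4 Y-linked genes, 0 probe readings were above background in these 6 arrays, and all 6 are labelled female. The number of arrays limits the precision.

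Most of the measured genes differed between the tumours and normal cerebellum. By limma with Benjamini-Hochberg adjustment at 0.05, two-sided, 16060 of 21661 genes passed (74.1%): 8853 were higher in the tumours (40.9%) and 7207 lower (33.3%). Of the 21661, 13428 carry a gene symbol. The others are known by an accession only, are counted as genes here, and may belong to a gene already counted. At least 2-fold, 5278 were higher (24.4%) and 4624 lower (21.3%), and at least 16-fold, 586 were higher and 674 lower. In 17407 genes (80.4%) the 3 tumours did not overlap with the 3 normal cerebella. Without scaling between arrays 6894 genes were higher and 8578 lower, so the balance between the directions depends on the scaling. Over all tested genes the median change was 0.14, and −0.14 when the arrays were left unscaled. Each list below is read against these medians and against the 40.9% of genes higher and 33.3% lower. With shares this large, a single called gene says little, and the sizes carry the description. In bulk tissue, fewer cells of a type and less RNA per cell cannot be told apart.

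**Figure D1:**
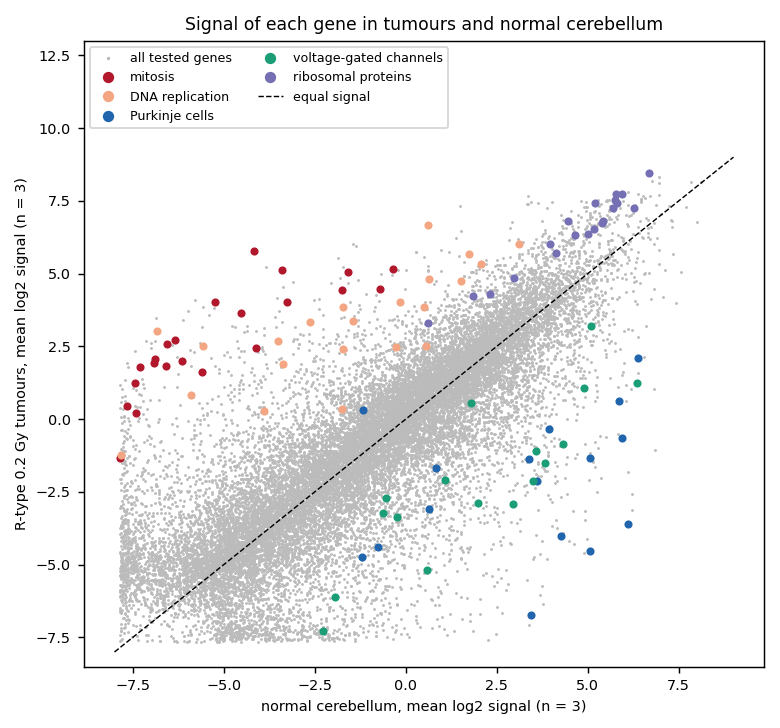
Mean level of each tested gene in the 3 R-type tumours after 0.2 Gy (vertical axis) against the 3 normal cerebella (horizontal axis), both as log2 signal relative to the array's 75th percentile, with members of 5 gene lists in colour. Mitosis and DNA replication genes lie above the diagonal, Purkinje cell and voltage-gated channel genes below it with Foxp2 as the exception, and ribosomal protein genes form a band above it at high signal.

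The largest rises are given first, by the size of the fitted change. For a gene not above background in normal cerebellum, that change rests on signal too dim to measure. Igfbpl1, a gene of young neurons, stood at 3.41, 3.84 and 3.16 in MB7, MB8 and MB9 and was not well above background in any normal cerebellum, which makes it at least 513-fold higher. Each such bound sets the mean of the 3 bright arrays against the dim group's detection limit, which is taken per array from the weakest probe well above background or the probe's own signal, whichever is higher. Mki67, the proliferation marker Ki-67, was at 5.54, 5.91 and 5.85 in the tumours and at −4.96, −4.49 and −3.02 in the normal cerebella, a change of 9.92 (SE 0.363, adjusted p = 3.08e-10). Tk1, the thymidine kinase of S phase, was at least 381-fold higher. Insm1 and Nhlh1, transcription factors of neuronal progenitors, were at least 294-fold and 297-fold higher. The other genes named at this end were Dtl, Ncapg, Melk, Pbk, Psrc1, Uhrf1 and Ska1, with Ncapg, a condensin subunit, at least 613-fold higher and Dtl, a replication licensing regulator, at least 234-fold higher. Ska1, a spindle and kinetochore protein, has no fold here because another of its probes was above background. Psrc1, Pbk and Uhrf1 were well above background in 1 of 3 normal cerebella. Genes at this end were picked among those whose groups did not overlap (80.4% of all genes), so their separation is not a result.

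At the other end stood genes with the largest fitted falls. Ppp1r17, a phosphatase inhibitor of Purkinje cells, was at 3.57, 3.42 and 3.37 in the normal cerebella and not well above background in any tumour, at least 438-fold lower in the tumours. Calb1, the calcium buffer calbindin, was at −3.50, −3.96 and −3.30 in MB7, MB8 and MB9 against 6.14, 6.08 and 6.08, a change of −9.69 (SE 1.24, adjusted p = 1.63e-05). The Purkinje cell G protein subunit Gng13 changed by −9.61, and the neurofilament gene Nefl by −10.11 with a signal above background in 1 of 3 tumours. Gabra6, the GABA receptor subunit that marks mature granule neurons, was at −4.26, −5.14 and −2.95 against 4.92, 4.86 and 5.15. Crtam, an adhesion molecule first known from lymphocytes, changed by −9.47, Vsnl1, a neuronal calcium sensor, by −9.51, Dgkg, a diacylglycerol kinase, by −8.90, Nefh, a neurofilament subunit, by −8.95, Naip6, of the inflammasome sensors, by −8.84 and Slc32a1, described below with Gad2, by −8.78. Crtam, Vsnl1, Naip6 and Gabra6 were above background in 2 of 3 tumours and Nefh in 1. These genes too were picked among those whose groups did not overlap. MB8 gave the lowest of the tumour values for Calb1 and Gabra6.

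SHH signalling was described first at the receptors. Ptch1, itself a target of the pathway, did not pass: MB7, MB8 and MB9 were at −3.16, −2.98 and −3.16 against −3.03, −3.20 and −3.33 in the normal cerebella, a change of 0.09 (SE 0.169, adjusted p = 0.66). The groups overlapped, and the labels do not say whether the probe lies inside the disrupted stretch of Ptch1, so this level does not check the genotype. Smo, the signal transducer that Ptch1 restrains, was at 4.82, 5.33 and 5.17 against 1.96, 2.11 and 1.74. Hhip, a decoy receptor that binds SHH, changed by 2.12. All 3 tumours lay above all 3 normal cerebella for Smo and Hhip, while 80.4% of all genes had no overlap between these groups. The ligand Shh, by contrast, was at least 4.03-fold lower, with no tumour well above background. Among the co-receptors Boc changed by 1.10 and Gas1 by 1.27, whereas Cdon changed by −5.12.

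At the transcription factors, Gli1, both effector and target, was at −0.78, −0.41 and −0.71 against −3.73, −3.99 and −4.07, a change of 3.30 (SE 0.218, adjusted p = 4.53e-08). Gli2, the main activator, was at 1.51, 1.83 and 1.48 against −2.97, −2.96 and −2.99, a change of 4.58. Gli3, mostly a repressor, went the other way by −3.45, with 2 of 3 tumours above background. The inhibitor Sufu changed by 2.22. Of 12 tested genes of the receptor and GLI list, 8 were higher and 3 lower (Gli3, Cdon and Shh), with a median change of 1.70.

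All 7 tested growth targets of the pathway were higher, with a median change of 6.25. Mycn, the MYC family member that drives precursor division, was at 4.57, 4.68 and 4.74 against −1.55, −1.55 and −1.67, a change of 6.25 (SE 0.0891, adjusted p = 2.35e-13). Ccnd2, a D-type cyclin, changed by 7.45, Sfrp1, a secreted WNT inhibitor, by 6.95, and Foxm1, a factor for mitotic genes, by 7.44. The chemokine receptor Cxcr4, which holds precursors in the outer layer, changed by 5.70, and Bmi1, a Polycomb gene, by 1.14. The tumours lay within 0.5 of each other for Mycn, Ccnd2 and Sfrp1. Igf2, an insulin-like growth factor, was less even: MB7, MB8 and MB9 were at 4.45, 3.13 and 4.20 against 1.91, 1.93 and 0.54, a change of 2.47 (SE 0.621, adjusted p = 0.00325).

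**Figure D2:**
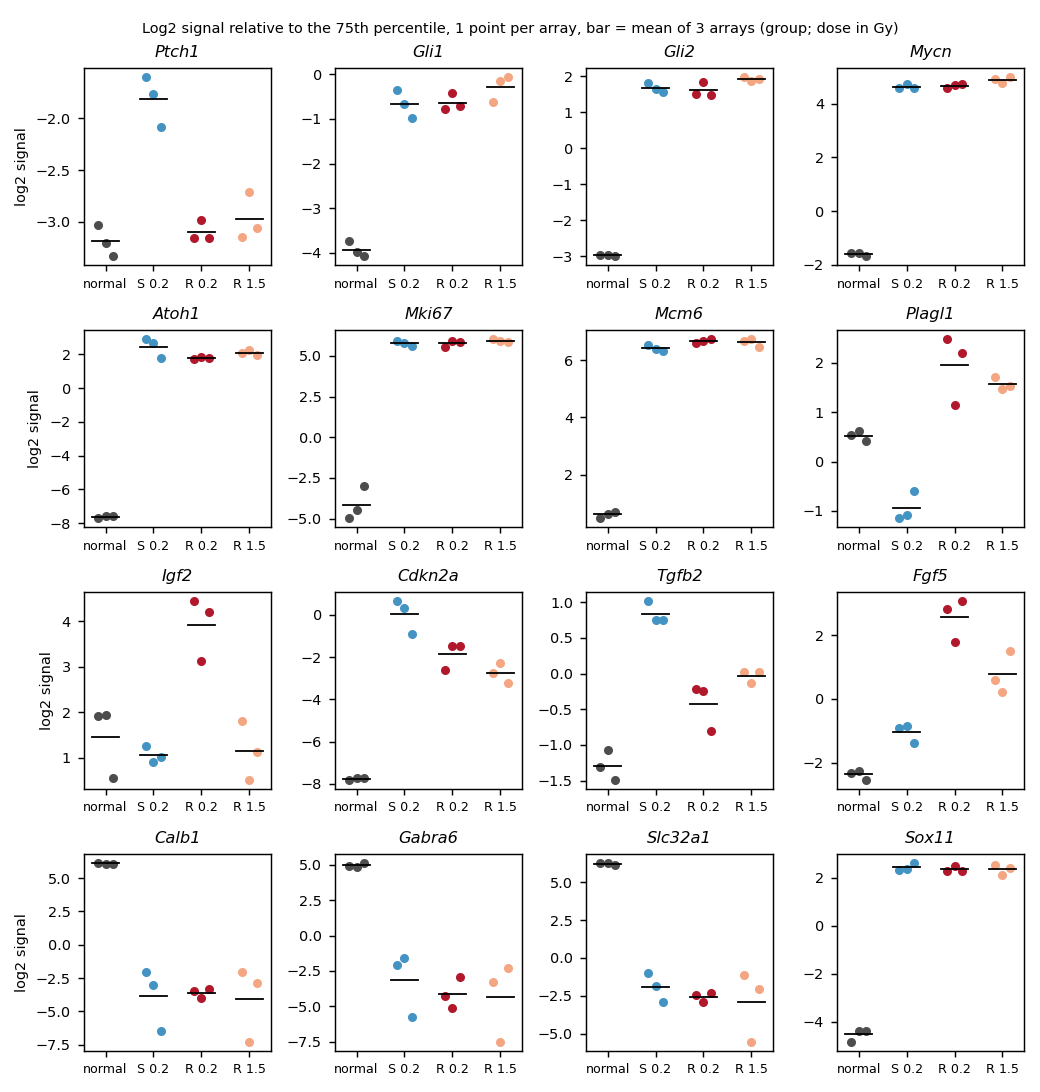
Level of 16 genes on each array (vertical axes, log2 signal relative to the array's 75th percentile) in normal cerebellum, S-type tumours after 0.2 Gy, R-type tumours after 0.2 Gy and R-type tumours after 1.5 Gy, each point 1 array and each bar the mean of 3. Ptch1 in MB7, MB8 and MB9 lies at the level of normal cerebellum, between −3.16 and −2.98, while Mycn lies between 4.57 and 4.74 against −1.67 to −1.55.

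Replication genes followed a single direction. DNA replication begins when Orc1, Cdc6 and Cdt1 load the Mcm2 to Mcm7 helicase, and many of these genes carry binding sites for E2F factors near their start. The promoters of Cdc6 and Orc1 are shown. Among list members that hold an E2F motif, these 2 had the largest fitted rise. Orc1 was not above background in normal cerebellum, so its rise has only a bound, given below. The windows run from 250 bases before to 50 after the RefSeq start (GRCm38.p6), 5′ to 3′ on the gene's strand, with the motif in capitals: Cdc6 at chr11:98907901-98908200 on the + strand, motif from −138 to −131, and Orc1 at chr4:108579204-108579503 on the + strand, motif from −27 to −20.
Cdc6: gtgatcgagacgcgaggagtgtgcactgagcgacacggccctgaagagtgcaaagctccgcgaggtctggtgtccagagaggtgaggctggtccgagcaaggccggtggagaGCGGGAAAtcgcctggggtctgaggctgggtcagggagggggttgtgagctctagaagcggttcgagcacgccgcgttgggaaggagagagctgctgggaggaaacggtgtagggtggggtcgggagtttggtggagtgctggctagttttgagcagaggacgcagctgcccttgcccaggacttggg
Orc1: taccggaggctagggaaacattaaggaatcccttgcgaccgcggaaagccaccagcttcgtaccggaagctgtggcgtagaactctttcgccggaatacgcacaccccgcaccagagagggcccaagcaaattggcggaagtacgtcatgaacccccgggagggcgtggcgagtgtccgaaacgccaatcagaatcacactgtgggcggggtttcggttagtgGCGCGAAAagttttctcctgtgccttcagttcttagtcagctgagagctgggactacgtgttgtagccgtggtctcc

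E2F was searched as TTTCGCGC, TTTGGCGC, TTTCCCGC or TTTGGCGG on both strands. The motif was found in 10 of 18 replication genes with a window (55.6%), against 730 of 27025 genes in the whole promoter table (2.70%) and 489 of 10719 tested genes (4.56%). This is a description of letters, not of binding.

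All 22 tested replication genes were higher in the tumours, with a median change of 4.18. Cdc6 was at 0.74, 0.89 and 0.87 against −5.68, −7.06 and −4.98, a change of 6.74, with 1 of 3 normal cerebella above background. Orc1 was at −1.26, −1.13 and −1.28 and not above background in normal cerebellum, at least 19.8-fold higher. Mcm6, a helicase subunit, was at 6.59, 6.67 and 6.74 against 0.49, 0.63 and 0.71 (change 6.05, SE 0.126, adjusted p = 3.15e-12). The tumours were within 0.2 of each other in all 3 genes. Tyms, which makes thymidylate, changed by 5.59 and the polymerase subunit Pole by 5.96. The smallest change in the list was in Fen1 (1.95), a flap nuclease.

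Mitotic genes moved further than replication genes in the list median given below. Many of them share a short promoter element, the cell cycle genes homology region, read in late cell cycle. Mki67 and Cenpf, a kinetochore protein, had the largest rises among members that hold this element (TTTGAA or TTCGAA, both strands), in capitals below: Mki67 at chr7:135716330-135716629 on the − strand, with 2 copies between −116 and −93, and Cenpf at chr1:189688037-189688336 on the − strand, from 2 to 7 after the start.
Mki67: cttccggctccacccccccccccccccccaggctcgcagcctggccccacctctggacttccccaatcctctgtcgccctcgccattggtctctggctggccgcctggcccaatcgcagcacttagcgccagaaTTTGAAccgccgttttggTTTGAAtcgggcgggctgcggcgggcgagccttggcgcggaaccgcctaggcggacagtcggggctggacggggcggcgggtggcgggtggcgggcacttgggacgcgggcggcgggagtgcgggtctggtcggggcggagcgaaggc
Cenpf: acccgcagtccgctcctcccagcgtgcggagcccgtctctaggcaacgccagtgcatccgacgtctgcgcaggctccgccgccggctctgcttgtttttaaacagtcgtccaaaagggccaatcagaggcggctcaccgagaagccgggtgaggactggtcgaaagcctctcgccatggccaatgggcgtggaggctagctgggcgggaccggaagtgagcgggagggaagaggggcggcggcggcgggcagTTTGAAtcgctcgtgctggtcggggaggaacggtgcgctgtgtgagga

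The element was found in 15 of 19 mitotic genes with a window (78.9%), against 21.7% of the genes in the promoter table and 16.9% of tested genes, and a short motif has many matches. The CCAAT box, searched as CCAAT, was found for 84.2% of the mitotic and 66.7% of the replication genes with a window against 41.1% of the genes in the table. A GLI motif, GACCACCCA, was found for 0 of 8 and 0 of 4 genes with a window in the SHH receptor and growth target lists, against 0.289% of the genes in the table, which says only that these letters are not in these windows.

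All 22 tested mitotic genes were higher. Their fitted median change was 8.14, but 11 of them were above background in no normal cerebellum. With 10 of these at their bound and Bub1, which has none, left out the median was 7.28, and with normexp background correction it was 5.91, next to 5.86 for the SHH growth targets. Cenpf was at 3.84, 4.17 and 4.06 against −6.00, −5.21 and −4.48 (change 9.25, SE 0.291, adjusted p = 8.99e-11), with 1 of 3 normal cerebella above background. The kinases Aurkb and Ttk were at least 110-fold and 18.3-fold higher, and Ndc80, a kinetochore subunit, at least 53.9-fold. Tpx2, a spindle factor, was at 2.31, 2.59 and 2.45 against −4.26, −4.18 and −3.89. MB7 was the lowest of the 3 tumours for Mki67, Cenpf and Tpx2, by less than 0.4. Within shared slides the list median was 7.49 for MB7 against normal cerebellum 3 and 8.26 for MB8 against normal cerebellum 2.

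The machinery of G1 was higher in 20 of 21 tested genes, with a median change of 2.80. Ccna2, the cyclin of S phase and G2, changed by 7.79, and the atypical E2F genes E2f7 and E2f8 were 5.49 higher and at least 44.6-fold higher. Cdk2, the S phase kinase, was at least 8.62-fold higher and Cdk4, which partners D-type cyclins, changed by 3.79. Inhibitors were higher too. Cdkn2c, the p18 inhibitor, changed by 3.89, Cdkn1a, p21, by 2.51, and Cdkn1c, p57, by 2.54. Cdkn2a, the locus of p16 and p19ARF, was at −2.61, −1.48 and −1.47 in MB7, MB8 and MB9 and not above background in normal cerebellum, at least 12.8-fold higher. Rbl2, the p130 pocket protein of resting cells, was the exception at −0.50.

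Chromatin genes were higher in 14 of 16, with a median of 1.93. Uhrf1, which brings Dnmt1 to replicating DNA, changed by 9.41, and Ezh2, the Polycomb methyltransferase, by 4.51. Hmgb2, a chromatin protein of dividing cells, changed by 5.47, and the condensin subunit Smc4 by 4.12. The Polycomb gene Cbx7 was at −2.45, −2.59 and −2.03 against 1.73, 1.71 and 1.81, a change of −4.11 (SE 0.183, adjusted p = 1.59e-09). It was the only tested member of this list that passed in the lower direction. The de novo methyltransferases differed: Dnmt3b changed by 1.77 while Dnmt3a, at −0.26, did not pass (adjusted p = 0.0541).

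Among DNA repair and checkpoint genes 15 of 16 were higher and 0 lower, with a median of 3.15. Exo1, an exonuclease of mismatch and break repair, was 255-fold higher, Brca1 changed by 5.51 and Fanci, of the Fanconi pathway, by 5.52. Prkdc, the kinase of end joining, did not pass (0.20, adjusted p = 0.0862).

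The p53 list was mixed: 12 of 21 genes were higher and 3 lower, with a median of 0.77, or 0.48 with 2 genes at their bound. Trp53 itself was at −0.82, −0.53 and −0.63 against −0.58, −0.42 and −0.38 and did not pass (adjusted p = 0.134). Its value depends on the probe: the median over its probes gave 1.45 (adjusted p = 7.33e-08). The same probe passed as lower without scaling between arrays and with slide as a block. Of the death effectors, Pmaip1 (Noxa) changed by 3.91, Bax by 1.76 and Bbc3 (Puma) by 1.41. Trp53inp1, a p53 cofactor gene, changed by 2.44, and Eda2r, of the TNF receptor family, was at least 3.23-fold higher. Mdm2, the main p53 inhibitor and target, did not pass at 0.16 (adjusted p = 0.0811), nor did Ccng1 at 0.06. Perp, Sesn1 and Plk2 were lower, by −1.52, −0.57 and −0.75. Calls for Btg2 and Tnfrsf10b ended when single arrays were left out, Btg2 without MB7, MB9 or normal cerebellum 1 or 2 (adjusted p up to 0.0909) and Tnfrsf10b without MB7, MB8 or normal cerebellum 2 (up to 0.172).

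**Figure D3:**
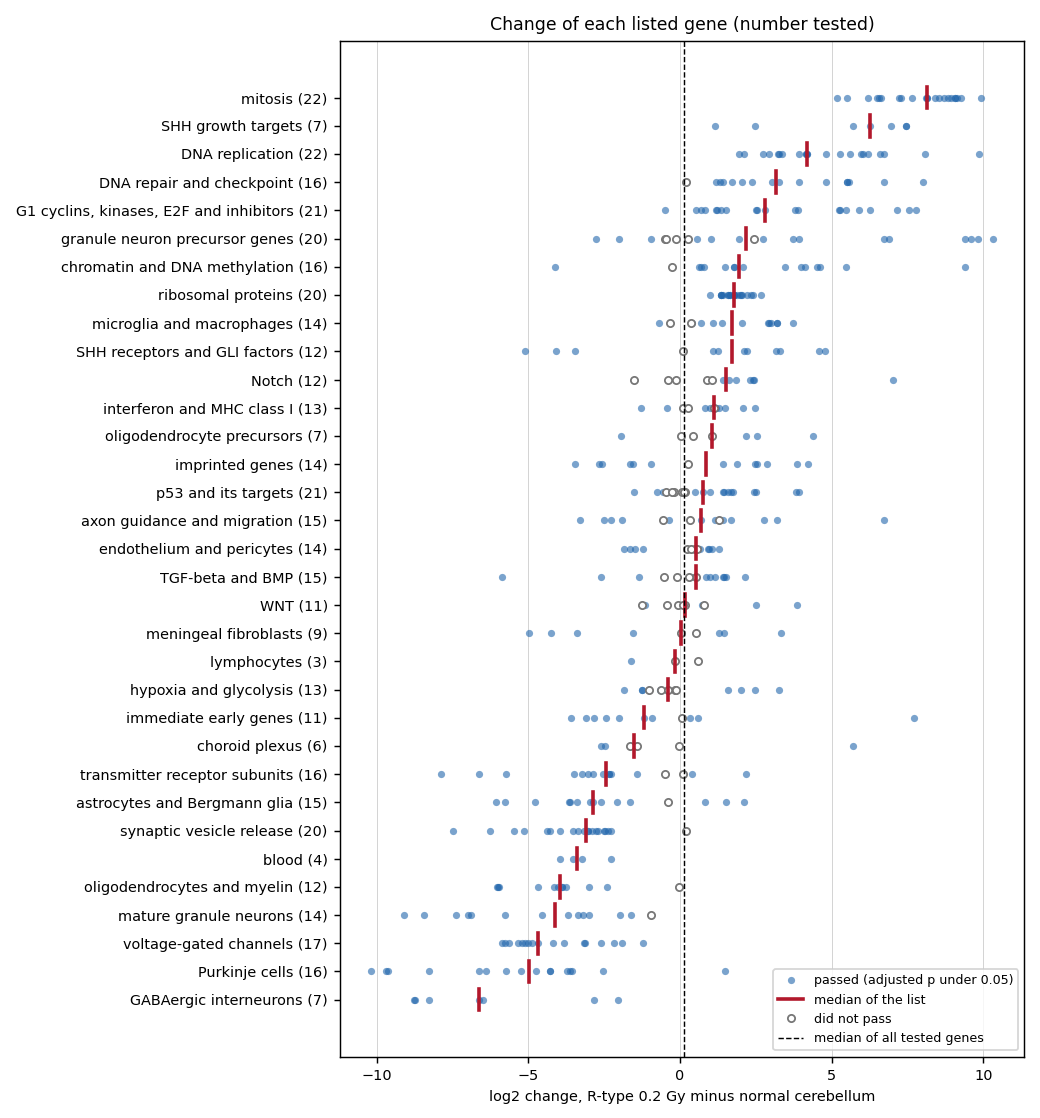
Log2 change of each tested list gene in the 3 R-type tumours after 0.2 Gy relative to 3 normal cerebella (horizontal axis), by gene list, with filled points for genes that passed at an adjusted p of 0.05, open points for those that did not, a red tick at the list median and a dashed line at the median of all tested genes, 0.14. Genes not above background in a group are drawn at their fitted change. The mitosis list has a fitted median of 8.14, or 7.28 with bounds, and the GABAergic interneuron list one of −6.62.

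Genes of granule neuron precursors were higher in 12 of 20 tested members and lower in 3, with a median of 2.19, and the 3 tumours had list medians of 2.19, 1.42 and 2.36 relative to normal cerebellum. Atoh1, the factor that defines these precursors, was at 1.72, 1.86 and 1.78 and not above background in any normal cerebellum, at least 160-fold higher. Barhl1, which acts below Atoh1, was at 3.30, 3.28 and 3.04 against −0.82, −0.82 and −0.48. Sox11 and Dcx, of immature and migrating neurons, changed by 6.88 and 6.74. Atoh1 was well above background on all 3 tumour arrays.

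Other members of the list did not pass or were lower. Zic1, kept in mature granule neurons, was at 6.62, 6.61 and 6.60 against 6.78, 6.64 and 6.80 (adjusted p = 0.278). Among the 3 that passed as lower, 2 fell at least 2-fold. Zic2 changed by −2.02 and Neurod1 by −0.95 (adjusted p = 0.0416). Pax6 was higher (0.56, adjusted p = 0.0335). The calls of Neurod1 and Pax6 were lost when single arrays were left out: Neurod1 without any 1 of the 6 arrays (adjusted p up to 0.108), and Pax6 without MB8, MB9 or normal cerebellum 1 or 2 (up to 0.102). Lhx9 ran from −7.37 in MB8 to −2.19 in MB7 and did not pass.

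Genes of mature granule neurons were lower in 13 of 14 tested members, with a median of −4.12, or −3.96 with 3 genes at their bound. Gabrd, a GABA receptor subunit of these cells, was between −3.09 in MB8 and −0.98 in MB9 against 5.39, 5.25 and 5.47, a change of −7.39. Cbln3, a cerebellin of granule neurons, and Slc17a7, the vesicular glutamate transporter, were at least 135-fold and 64.8-fold lower. Chn2, a Rac regulator, changed by −7.00, and Tiam1, a Rac activator, by −3.00. The smallest passing change was in Rbfox3, the neuronal nuclear protein NeuN: 2.94, 2.98 and 2.95 against 4.51, 4.49 and 4.67, a change of −1.60. Cbln1, which links granule neurons to Purkinje cells, changed by −1.98 and was still at 5.10, 5.12 and 5.18 in the tumours. Reln, made by granule neurons and precursors alike, did not pass (−0.96, adjusted p = 0.0567). The summed level of the list, as signal over the 75th percentile, was 55.3 to 62.9 in the tumours and 369 to 416 in normal cerebellum.

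Purkinje cell genes were lower in 15 of 16, with a median of −4.99 and list medians of −4.73, −5.41 and −4.83 in the 3 tumours. Their summed level was 9.42 to 11.2 in the tumours and 403 to 432 in normal cerebellum. Pcp2, a marker of these cells alone, was at −1.34, −1.22 and −1.45 against 5.12, 5.08 and 5.01 (change −6.40, SE 0.243, adjusted p = 4.17e-10). The glutamate transporter Slc1a6 changed by −6.61 and the phospholipase Plcb4 by −3.73. Itpr1, the calcium release channel, changed by −4.29 and stayed near 2 in the tumours. Foxp2, a transcription factor of Purkinje and other neurons, was the exception: 0.16, 0.63 and 0.14 against −1.10, −1.13 and −1.32, a change of 1.49 (SE 0.297, adjusted p = 0.000608).

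All 7 tested genes of GABAergic interneurons were lower, with a median of −6.62, or −6.51 with 2 genes at their bound. Gad1 and Gad2 make GABA, and Gad2 was at least 163-fold lower while Gad1 changed by −8.26. Slc32a1, which loads GABA into vesicles, was at −2.44, −2.93 and −2.31 against 6.23, 6.27 and 6.16. Slc6a5, the glycine transporter of Golgi cells, was at least 22.6-fold lower, and Pvalb, parvalbumin, changed by −6.51. Purkinje cells also make GABA and parvalbumin.

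The release machinery of synapses was lower in 19 of 20 tested genes, with a median of −3.10, or −3.03 with 2 genes at their bound. Snap25, a membrane SNARE protein, changed by −6.26, its vesicle partners Vamp1 and Vamp2 by −4.37 and −3.04, and Nsf, which takes SNARE complexes apart, by −3.35. Nsf was at 1.24 in each tumour and at 4.56, 4.64 and 4.57 in the normal cerebella. Dnm1, of vesicle retrieval, changed by −5.48, and the release factor Unc13c by −7.49 with 2 of 3 tumours above background. Syn1, a vesicle phosphoprotein, did not pass (0.19, adjusted p = 0.114), and here too the probes disagreed, with −1.28 for the median over them (adjusted p = 8.65e-06).

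Voltage-gated channels were lower in all 17 tested members, with a median of −4.67, or −3.83 with 2 genes at their bound. The sodium channel Scn1a was at −2.84, −2.90 and −2.93 against 2.00, 1.89 and 2.04, a change of −4.87. Kcnc1, a potassium channel of fast firing, changed by −4.67 and the pacemaker channel Hcn2 by −2.18. Cacna1g, a T-type calcium channel, differed among the tumours, at −0.83, −2.87 and −0.82. The smallest change was in Cacna2d2, an accessory calcium channel subunit (−1.23). In Scn1a, Kcnc1 and Hcn2 every tumour lay below every normal cerebellum, while 80.4% of all genes had no overlap between these groups.

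Of 16 tested transmitter receptor subunits, 12 were lower and 2 higher, with a median of −2.44, or −2.30 with 3 genes at their bound. Glrb, the glycine receptor anchor subunit, changed by −2.55. Grin2a, the adult NMDA receptor subunit, was at least 1.73-fold lower, and Gria4, an AMPA receptor subunit, changed by −2.33. Grin2b, the NMDA receptor subunit of young neurons, went up: −0.97, −2.02 and −1.50 against −3.64, −3.56 and −3.82, a change of 2.18 (adjusted p = 0.00261). Grin2d also passed at 0.39, and its call was lost without any 1 of the 6 arrays (adjusted p up to 0.125).

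Axon guidance genes moved both ways, with 7 of 15 higher and 5 lower, close to the 40.9% and 33.3% of all genes. Their median was 0.68. The receptor Dcc, which binds netrin, was at 2.14, 2.18 and 2.13 against −4.65, −4.39 and −4.69, a change of 6.73. The Slit receptors Robo1 and Robo2 changed by 2.76 and 3.21. Cxcl12, the meningeal ligand of Cxcr4, was at −0.41, −1.01 and −0.43 against 1.83, 2.09 and 1.70, a change of −2.49. Epha4, an ephrin receptor, changed by −3.29 and Unc5c, a netrin receptor, by −2.29. Astn1, a gene of glia-guided migration, passed at −0.37 and not without MB8, MB9 or any 1 normal cerebellum (adjusted p up to 0.1).

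Astrocyte and Bergmann glia genes were lower in 11 of 15 and higher in 3, with a median of −2.88. Aldoc, an aldolase of astrocytes and Purkinje cells, was at 1.66, 0.46 and 1.01 against 6.95, 6.79 and 6.69. The gap junction gene Gja1 changed by −3.67, Glul, glutamine synthetase, by −1.66 and Gdf10, a Bergmann glia ligand, by −6.08. Sox9, of glia and neural progenitors, was higher at 3.03, 2.93 and 3.10 against 0.90, 1.01 and 0.79. Fabp7, of radial glia, changed by 1.52 (adjusted p = 0.0199, lost without MB7 or normal cerebellum 2, up to 0.0833), and Gfap by 0.83 (adjusted p = 0.0429, lost without MB7, MB9 or any 1 normal cerebellum, up to 0.195).

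The tumours were uneven in this group. MB7 held more of the astrocyte list than the others: its list median was −1.80 against −4.02 in MB8 and −2.83 in MB9, and the summed levels were 91, 42.4 and 60.7 against 307 to 341 in normal cerebellum. S100b was at 4.04, 2.39 and 3.19 and Aqp4 at 0.79, −1.51 and −0.24, in the same order. The part of this unevenness in other results was not tested.

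Myelin genes were lower in 11 of 12, with a median of −3.97. Mag, a myelin adhesion protein, was at −0.99, −0.91 and −0.75 against 3.45, 4.28 and 3.63, Mal changed by −4.16, and Mog was at least 17.7-fold lower. Mbp, also transcribed outside myelin as a longer unit, did not pass (−0.02, adjusted p = 0.886). The summed level was 8.93 to 10.3 in the tumours and 65.8, 104 and 69.1 in normal cerebella 1, 2 and 3, so normal cerebellum 2 carried the most myelin signal. Of 7 tested genes of oligodendrocyte precursors 3 were higher, close to the 40.9% of all genes, and 1 lower. Pdgfra, the growth factor receptor of oligodendrocyte precursors, changed by 4.39, Cspg4 (NG2) by 2.18 and Olig2 by 2.53, while Ptprz1, shared with astrocytes, changed by −1.94.

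**Figure D4:**
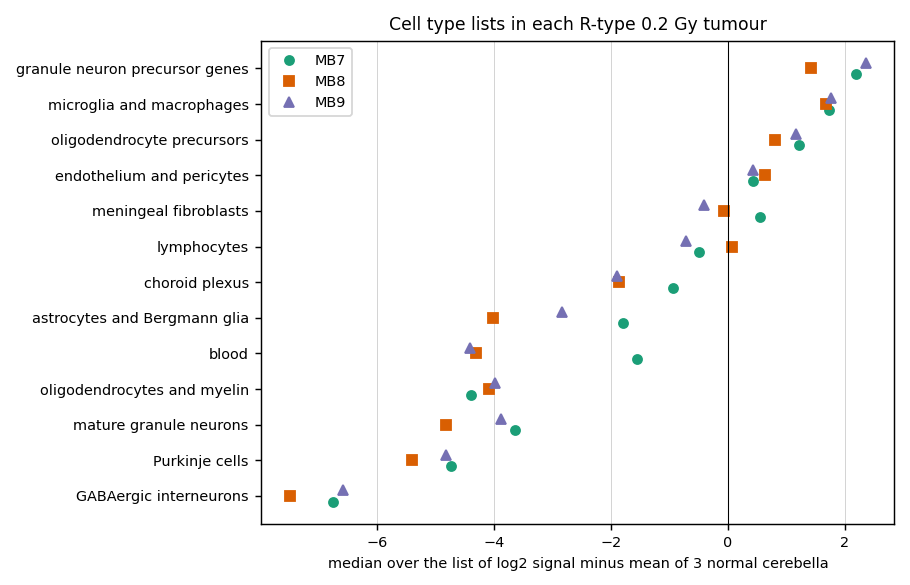
Median over each of 13 cell type marker lists of the level in MB7, MB8 or MB9 minus the mean of the 3 normal cerebella (horizontal axis, log2). Purkinje cell medians were −4.73, −5.41 and −4.83, and astrocyte medians spread from −4.02 in MB8 to −1.80 in MB7.

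Microglia and macrophage genes were higher in 11 of 14 and lower in 1, with a median of 1.72 and a summed level of 49.9 to 71.9 in the tumours against 11.4 to 16.1 in normal cerebellum. The complement genes C1qa, C1qb and C1qc changed by 2.95, 2.90 and 3.21, and C1qc was at 3.21, 3.06 and 3.38 against −0.25, 0.19 and 0.08. Fcer1g, a signalling chain of phagocytes, changed by 3.01 and Aif1, known as Iba1, by 3.73. P2ry12, a receptor of microglia, was the 1 member that passed as lower, at −3.42, −4.01 and −3.08 against −3.00, −2.56 and −2.89 (−0.69, adjusted p = 0.0226, lost without MB8 or normal cerebellum 2, up to 0.107), and Tmem119, another microglial gene, did not pass (−0.32, adjusted p = 0.344). Csf1r and Trem2 passed at 0.39 and 0.70, and both calls were lost without single arrays: Csf1r without MB9 or normal cerebellum 1 or 3 (up to 0.121), Trem2 without MB7, MB9 or normal cerebellum 1 or 2 (up to 0.158).

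Lymphocyte genes were close to background. The summed level of 3 tested members was 0.0793 to 0.244 in the tumours and 0.263 to 0.283 in normal cerebellum. The T cell genes Cd3e (−0.18) and Cd3d (0.58) did not pass.

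Vessel genes had no common direction. Of 14 endothelial and pericyte genes 6 were higher, close to the 40.9% of all genes, and 4 lower, and the summed level was 25.6 to 28.1 against 21.3 to 23.6. Cldn5, a tight junction gene, changed by 0.92 and Vwf, the clotting factor stored by endothelium, by 1.28. Flt1, a VEGF receptor, changed by −1.66 and Abcb1a, an efflux pump of the blood-brain barrier, by −1.85. The calls of Cdh5 (1.04), Esam (0.67) and Eng (0.59) were each lost without MB7 or without MB8, with adjusted p up to 0.0757, 0.0673 and 0.0858, and also without normal cerebellum 3, without any 1 normal cerebellum, and without normal cerebellum 1 or 3, in that order.

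Meningeal fibroblast genes were split, 3 of 9 higher and 4 lower, against 40.9% and 33.3% of all genes. Their median of 0.03 changed sign among the processing settings (−0.27 to 0.30). Col3a1, a fibrillar collagen, was at 1.98, 1.97 and 1.36 against −1.46, −1.19 and −2.07. The transporters Slc22a6 and Slc6a13 went the other way, at least 21.3-fold lower and −3.38, and Ogn, osteoglycin, changed by −4.25. Normal cerebellum 3 and MB9 had the lowest summed levels, 6.31 and 9.85 against 12.3 and 14.1 in the other normal cerebella and 16.5 and 18.2 in the other tumours. The calls of Col1a1 (1.44), Lum (1.30) and Fmod (−1.54) were lost without single arrays: the first 2 without MB7, MB8 or normal cerebellum 3, Col1a1 also without normal cerebellum 1 or 2, and Fmod without MB8, MB9 or normal cerebellum 1 or 2, with adjusted p up to 0.154, 0.0881 and 0.115.

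Of 6 tested choroid plexus markers 1 was higher and 2 lower, against 40.9% and 33.3% of all genes. Their median was −1.53 and ran from −2.17 to −0.47 among the processing settings. The summed level was 1.81 to 2.05 in the tumours against 6.31 to 10.2 in normal cerebellum. Ttr, the transthyretin gene that defines this tissue, was not above background in the tumours and did not pass, Kl did not pass either (−1.41), Clic6 changed by −2.59 and Enpp2, also an oligodendrocyte gene, by −2.48. Aqp1, a water channel, rose against its list: −1.95, −0.54 and −1.15, and at least 19.9-fold higher than in normal cerebellum.

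All 4 tested blood genes were lower, with a median of −3.39. Hba-a1 and Hbb-bt, the adult globins, were at 1.90 and 2.58 in MB7, but between −1.02 and −0.48 in MB8 and MB9, against 2.90 to 4.72 in normal cerebellum. The summed level was 9.81 in MB7, 1.31 in MB8 and 1.25 in MB9, and normal cerebellum 2 had the highest of the normal values (42.2 against 20.6 and 22.2). Alas2, of haem synthesis, and Slc4a1, the red cell anion exchanger, changed by −3.95 and −2.26. How much blood was left in each sample was not tested beyond these markers.

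Growth factor pathways other than SHH were mixed. In the TGF-beta and BMP list 8 of 15 genes were higher and 3 lower, against 40.9% and 33.3% of all genes. The list median was 0.53. Of the ligands, Tgfb1 changed by 1.44, Tgfb3 by −1.36, and Tgfb2 was at −0.22, −0.24 and −0.80 against −1.31, −1.07 and −1.49, a change of 0.87 (SE 0.184, adjusted p = 0.000978). The receptors Tgfbr1 and Tgfbr2 changed by 2.15 and 1.53, and the signal carriers Smad2 and Smad4 by 1.42 and 1.14. Smad7, the feedback inhibitor, went down: −3.60, −3.41 and −3.70 in the tumours, a change of −2.60. Its tumour values lay below all 3 normal cerebella, while 80.4% of all genes had no overlap between these groups. Id4, an inhibitor of differentiation factors, changed by −5.86, while Id1 changed by 0.98 and Id2 did not pass (−0.10).

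Notch genes were higher in 7 of 12 and lower in 0, with a median of 1.52. Dll3, a ligand that acts within the cell, was at 2.48, 2.11 and 2.70 against −4.71, −4.43 and −4.67, a change of 7.03. The receptor Notch2 changed by 1.85, the DNA-binding partner Rbpj by 2.30 and the target Hey1 by 2.40. Notch1 (−0.14) and Hes5 (1.07, adjusted p = 0.146) did not pass. In the WNT list 4 of 11 genes were higher, close to the 40.9% of all genes, and 1 lower. Its median of 0.16 changed sign among the settings (−0.11 to 0.33). Nkd1, a feedback inhibitor, was at 4.69, 4.52 and 4.73 against 0.73, 0.93 and 0.68, whereas the common target Axin2 changed by 0.74 and Lef1 by −1.15. Ctnnb1, beta-catenin, changed by 0.77, and Dkk2, a secreted inhibitor, was at least 1.27-fold higher.

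Imprinted genes, which are expressed from 1 parental copy, moved in both directions, as did genes at large. Among them 7 of 14 were higher and 6 lower, against 40.9% and 33.3% of all genes. Plagl1, a growth suppressor gene, was at 2.48, 1.15 and 2.20 against 0.54, 0.61 and 0.41, a change of 1.42 (SE 0.308, adjusted p = 0.00116), with MB8 the lowest of the tumours. Nnat, of fetal brain, changed by 3.86 and Mest by 2.88. Snrpn, a splicing protein gene of neurons, was at 1.32, 1.58 and 1.50 against 4.17, 4.11 and 4.15, and Grb10, a growth inhibitor, changed by −2.57, Impact by −1.66 and Ndn, necdin, by −3.46. Sgce did not pass (0.28).

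All 20 tested ribosomal protein genes were higher, with a narrow span from 0.98 (Rplp0) to 2.68 (Rps19) and a median of 1.79. Rps9 was at 5.87, 6.03 and 6.10 against 3.90, 3.95 and 3.99, and Rpl10a and Rpl23 changed by 2.40 and 1.66. Many ribosomal protein genes have near-identical pseudogene copies, so their probes may bind more than 1 transcript.

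Glycolysis and hypoxia genes had no common direction, with 4 of 13 higher and 4 lower, against 40.9% and 33.3% of all genes. Their median was −0.40. Hk2, the hexokinase of growing tissue, was at 4.91, 5.10 and 5.13 against 2.00, 1.75 and 1.63, a change of 3.25, and Ldha, lactate dehydrogenase, changed by 1.58. Aldoa, an aldolase, changed by −1.24 and the glucose transporter Slc2a1 by −0.65. Vegfa, the angiogenic factor, did not pass (−0.63, adjusted p = 0.132), and Car9, a carbonic anhydrase used as a hypoxia marker, was lower by −1.86. Bnip3 passed at −1.25 (adjusted p = 0.0122, 0.0555 without MB7), with MB8 at 2.63 above MB7 and MB9 at 1.26 and 1.45.

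Immediate early genes, which respond within minutes to activity or handling, were lower in 7 of 11 and higher in 3, with a median of −1.18. Fos was at −2.89, −2.77 and −2.91 against −0.05, −0.08 and 0.88, and Arc, Dusp1 and Nr4a1 changed by −3.58, −2.02 and −2.82. Egr2 went against its list, at 1.08, 1.48 and 0.70 and at least 98.3-fold higher. Jun passed at 0.34 and lost its call without MB7, MB9 or normal cerebellum 1 or 3 (adjusted p up to 0.101). How long tissue took to collect is not given, and its part was not tested.

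Interferon and MHC class I genes were higher in 8 of 13 and lower in 2, with a median of 1.13. Bst2, tetherin, was at 1.42, 1.14 and 1.19 against −1.20, −1.06 and −1.37, a change of 2.46. The antigen presentation genes Psmb8, H2-K1 and B2m changed by 2.09, 1.47 and 1.30, genes that microglia and macrophages also express. Ifit3 was lower (−1.30). Irf7 (1.18), Isg15 (1.00) and Oasl2 (0.81) passed and lost the call when single arrays were left out: Irf7 without MB7, MB8, MB9 or normal cerebellum 2 or 3 (adjusted p up to 0.129), Isg15 without MB7 or normal cerebellum 2 or 3 (up to 0.111) and Oasl2 without MB7, MB8 or normal cerebellum 1 or 3 (up to 0.143).

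The 3 tumours were close to each other at most genes: the median standard deviation of a gene among them was 0.15, against 0.108 among the normal cerebella. MB7 was at least 4-fold above both other tumours in 11 genes and below both in 22, MB8 in 5 and 38, and MB9 in 4 and 20. Igf2bp3, an RNA-binding protein of fetal tissue, was lowest in MB8, at −5.01 against −2.37 and −1.53. Xist, the RNA that silences 1 X chromosome, was at 1.16, 0.85 and −4.04, with MB9 far below the other tumours and the female normal cerebella at 0.00 to 0.11. Arg1, an enzyme of activated macrophages, was highest in MB7 (−0.81, −3.16 and −4.27). Tecta, Tex13b, Cldn34c1 and Hbb-bt were also among the genes with the widest span, and MB7 stood highest in Tex13b, Cldn34c1 and Hbb-bt. These genes were chosen for their spread, so their values are a description.

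The R-type tumours after 0.2 Gy differed from the S-type tumours after the same dose at far fewer genes, 1033 of 21661 (4.77%), of which 430 were higher (1.99%) and 603 lower (2.78%) in the R-type. Without scaling between arrays 158 were higher and 2515 lower, so the split rests on the scaling, and leaving out 1 array gave 295 (without MB9) to 929 (without MB8) genes, with 390 without MB5, 407 without MB7, 432 without MB4 and 469 without MB6. With slide as a block 454 passed. The 2 groups share no normal cerebellum. MB6 is male, and the S-type tumours' ages were 128, 133 and 135, so age differs with type and cannot be told apart from it.

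Ptch1 was lower in the R-type: −3.16, −2.98 and −3.16 against −1.60, −1.76 and −2.08 in MB4, MB5 and MB6, a difference of −1.29 (adjusted p = 0.00175). Plagl1 was higher, at 2.48, 1.15 and 2.20 against −1.14, −1.09 and −0.60, a difference of 2.88 (adjusted p = 0.000484). Tgfb2 was lower by −1.26 (adjusted p = 0.00339), with the S-type at 1.02, 0.75 and 0.75. For these 3 genes the groups did not overlap, as in 32.5% of all genes, and the call was kept under all 15 alternative settings. In relation to normal cerebellum the R-type tumours were 1.42 higher in Plagl1, with the S-type below all 3 normal cerebella.

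Igf2 was higher in the R-type by 2.87 (adjusted p = 0.0256), with MB4, MB5 and MB6 at 1.26, 0.91 and 1.01, and the call was lost without MB4, MB5, MB6, MB7 or MB9 (adjusted p 0.0647 to 0.0976). Cdkn2a was lower by −1.88 (adjusted p = 0.0285), with the S-type at 0.66, 0.34 and −0.91, and the call was lost without MB4, MB5, MB7 or MB9 (0.063 to 0.0992) and in a fit of the 6 arrays alone (0.121). In neither gene did the arrays of the 2 types overlap, as in 32.5% of all genes. Fgf5, a fibroblast growth factor, was at 2.84, 1.79 and 3.08 against −0.91, −0.86 and −1.37, a difference of 3.62 (adjusted p = 0.0031), and 4.94 above normal cerebellum. Dgkb, a diacylglycerol kinase of neurons, was lower by −2.99 (adjusted p = 0.000491). Of 452 tested list genes 14 passed (3.1%), against 4.77% of all genes. The lists were chosen with earlier results of these data known, so this share supports nothing on its own.

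The differences were uneven along the genome. Chromosome 13, which carries Ptch1, held 95 genes lower and 9 higher in the R-type of 483 tested, 21.5% of them, against 3.96% of the 12945 tested genes on other chromosomes. The median difference was −0.24 on chromosome 13 and 0.06 elsewhere. Among the other chromosomes, chromosome 6 had the highest median, 0.175, with 18 genes higher and 4 lower (3.27% of those tested). Its median relative to normal cerebellum was the highest too, 0.493. By tumour the chromosome 13 median was −0.26 in MB7, −0.08 in MB8 and −0.23 in MB9, so MB8 was nearest to the S-type. Relative to normal cerebellum the same chromosome 13 medians were −0.15, 0.06 and −0.10. The median difference of the 95 lower genes was −0.85. Between 64 (without MB7 or without MB9) and 148 (no scaling) genes of chromosome 13 were lower under the alternative settings, with 66 without MB5, 68 without MB6, 70 without MB4 and 111 without MB8. Neighbouring genes are not independent, and no test of the chromosome was made.

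**Figure D5:**
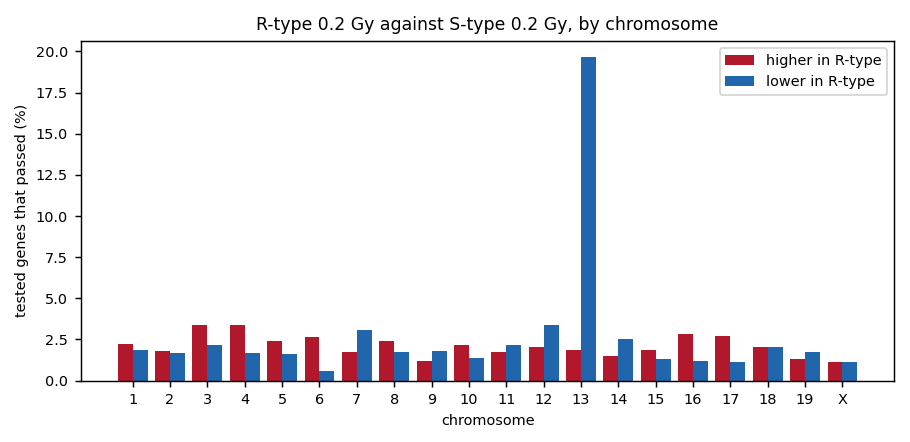
Percent of tested genes on each chromosome (horizontal axis) that passed as higher or lower in R-type than in S-type tumours after 0.2 Gy (vertical axis). Chromosome 13 stands out with 95 of 483 genes lower.

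The R-type tumours after 0.2 Gy and after 1.5 Gy could barely be separated at this number of arrays. Only 15 genes passed (0.0692%), 14 of them higher after 0.2 Gy (0.0646%) and 1 lower (0.00462%), with 1528 at an unadjusted p under 0.05. In a fit of the 6 arrays alone limma called 0, with 1373 at an unadjusted p under 0.05. Leaving out 1 array gave 159 without MB8, 9 without MB9, 25 without MB10 and 27 without MB11. The ages after 1.5 Gy were 87, 101 and 103. All 9 named genes among the 15 lie on chromosome 13. Ndufs6, a subunit of respiratory complex I, was at 4.04, 4.01 and 4.13 against 3.13, 3.12 and 2.93 after 1.5 Gy, a difference of 1.00 (adjusted p = 0.000911), and differed from normal cerebellum by −0.04. Mrpl36, a mitochondrial ribosomal protein, Brd9, a chromatin remodelling subunit, Clptm1l, Zfp825 and Pdcd6 were higher by 0.97, 0.92, 0.84, 0.84 and 0.82. The others were Ccdc127, Sdha, a subunit of succinate dehydrogenase, and Trip13, a checkpoint ATPase. Of the 452 list genes 0 passed, and Ptch1 was at −3.15, −2.71 and −3.06 after 1.5 Gy (difference −0.12, adjusted p = 0.939). Igf2 was at 1.80, 0.51 and 1.12 after 1.5 Gy, below every value after 0.2 Gy as in the 11.8% of genes whose groups did not overlap, and did not pass (2.78, adjusted p = 0.393).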

How the data were processed

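Per the submitters' processing notes and the file headers, the authors extracted each array with Agilent Feature Extraction 9.5.1 (build mm9 annotation), and the deposited intensity values are background-subtracted but not scaled between arrays. From them log2(gProcessedSignal) minus each array's 75th percentile was computed. RefSeq accessions named 24800 probes as 17158 symbols, and 16298 stayed unnamed; each gene is represented by its probe with the highest mean. Of 32628 names, 21661 were well above background on at least 3 of 15 arrays and were tested. Of 4947 genes with several tested probes, 359 had probes called in opposite directions. limma 3.58.1 (R 4.3.3) fitted all 15 arrays in 5 groups of 3 without imputation, two-sided, and contrasts were checked on simulated data; tables and plots used Python 3.11.15, pandas 2.3.3, numpy 2.4.6 and matplotlib 3.10.9. P-values set the difference of 2 group means against the spread within groups, pooled over all 15 arrays in the main fit.

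Members and lists were chosen with earlier results of these data known, in part from a previous analysis, and support nothing on their own. Of 484 genes in 33 lists 464 are on the array; listed genes without a test are not analysed here, and some results are not reported here. Named genes are the 7 fixed ones, the highest and lowest changes per comparison (12 and 12 against normal cerebellum, 6 and 6 between tumour groups) among genes without overlap and above background throughout the higher group, the 4 smallest adjusted p of each list, its exceptions, and the 8 widest spans among MB7, MB8 and MB9. Other list members, Sdha, Ccdc127 and Trip13 were named after their values were seen. Promoters come from RefSeq's GRCm38.p6 table and not from the files' build. The authors' deposited series table holds log2 values whose differences between arrays follow the scanner values (r at least 0.99985); its centring is unstated, and its column medians are 0.00234, 0.0817 and 0.0889 for normal cerebella 1 to 3, 0.0704, 0.13 and 0.127 for MB7 to MB9, 0.0683, −0.0795 and 0.0526 for MB4 to MB6, 0.0912, 0.152 and 0.0996 for MB10 to MB12, and 0.0506, −0.0506 and 0.106 for MB1 to MB3. List medians with bounded genes at their bound were added after seeing the data. Scaling, background correction, the filter, the probe rule, slide, the arrays fitted, the series table and leaving out each array were varied.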

Additional observations from a re-analysis of the deposited data

Results flagged for a closer look

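Against the S-type tumours of the same dose, 24 named genes had a tested difference, and none was weighed for a cause. Of these, 5 were named whatever their rank: Ptch1 (−1.29), Plagl1 (2.88), Cdkn2a (−1.88), Tgfb2 (−1.26) and Igf2 (2.87). The genes most above the S-type were Tenm3, a cell adhesion protein of axons (4.70, adjusted p = 0.0428), Fgf5 (3.62), Islr2, an axon growth protein (3.25), Igf2bp3 (at least 5.39-fold, adjusted p = 0.0257) and Fgl1, a secreted fibrinogen-like protein (at least 2.21-fold, adjusted p = 0.01). Islr2 was also at least 48.5-fold above normal cerebellum.

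Those most below the S-type were Mab21l2 (−6.51), Dgkb (−2.99), Chrna10, an acetylcholine receptor subunit (−2.86), Lrba (−2.86), Ago4, an Argonaute gene (−2.73), and Bend7 (at least 2.64-fold, adjusted p = 0.0042). Mab21l2, a gene of the dorsal midbrain and eye, was at −1.48 in MB7, −6.92 in MB8 and −7.48 in MB9 against 1.33, 1.18 and 1.14, and above background in 1 of these 3 tumours. The median over the probes of Ago4 gave −0.48 (adjusted p = 0.212).

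Among list genes, Usp18 (2.27), Car9 (0.98), Pmaip1 (0.89), Cbln1 (0.72) and Slc2a1 (0.55) were higher than in the S-type, and Cplx2 (−1.15), Sox4 (−0.99) and Gas1 (−0.61) lower. All 8 of these lost the call when single arrays were left out: Gas1 without any 1 of the 6 arrays (adjusted p up to 0.109), Car9 without MB4 or MB7 (up to 0.0521), Cplx2 in each case but MB4 (up to 0.102), Cbln1 in each case but MB5 (up to 0.107), Pmaip1 and Slc2a1 in each case but MB7 (up to 0.146 and 0.101), Sox4 in each case but MB8 (up to 0.151) and Usp18 in each case but MB9 (up to 0.154). The same held for Chrna10 without any 1 array (up to 0.161), Tenm3 and Igf2bp3 in each case but MB8 (up to 0.154 and 0.106), Mab21l2 in each case but MB7 (up to 0.129) and Lrba without MB4 or MB9 (up to 0.0681).

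Against the R-type tumours after 1.5 Gy, 9 named genes of chromosome 13 were higher, and the 6 with the largest differences were Ndufs6 (1.00), Mrpl36 (0.97), Brd9 (0.92), Clptm1l (0.84), Zfp825 (0.84) and Pdcd6 (0.82). Groups of 3 arrays were not tested for single outlying samples.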

How the results depend on the processing

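Against normal cerebellum the count of 16060 genes stayed within 1.5 times under every alternative run, with 15529 for slide as a block, 16578 for the 6 arrays alone and 15097 to 15396 with 1 array left out. Of 488 genes followed, 453 lost no call and kept their direction under every setting, 33 lost a call in at least 1, and 3 reversed, Pdcd6 being among both: Trp53 (1.45) and Syn1 (−1.28) with the median over probes, and Pdcd6 without scaling (−0.03, adjusted p = 0.828). Against the S-type tumours 1033 genes became 2673 without scaling, 541 without the filter on dim probes, 454 with slide as a block, 456 in the 6 arrays alone and 295 to 929 with 1 array left out. Against R-type tumours after 1.5 Gy 15 genes became 0 in the 6 arrays alone and 9 to 159 with 1 array left out, and the 6 named ones had adjusted p of 0.226 to 0.282 there. The cause of these shifts was not tested; the smaller fits have fewer arrays. Genes not well above background in a group have only a bound there. No paired analysis was possible because the groups share no replicate numbers, which only name samples.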
